A study of Mus musculus with 6 samples.

Results

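The 10 genes described here carry cholesterol out of microglia, free it inside lysosomes, or store it as ester: the liver X receptor genes Nr1h2 and Nr1h3, the transporter genes Abca1 and Abcg1, the ubiquitin ligase gene Mylip, the lysosomal genes Lipa, Npc1 and Npc2, and the storage genes Soat1 and Plin2. They were chosen by symbol, with earlier results of these data known, and all 10 were found among the 42303 genes of the RNA-seq table. Microglia, the resident macrophages of the brain and spinal cord, were sorted on F4/80 and CD45 after a Percoll gradient. The comparison is between cells taken before disease was induced (naive) and cells taken at peak disease in EAE, experimental autoimmune encephalomyelitis, in which immunisation with a myelin oligodendrocyte glycoprotein peptide (residues 35 to 55) turns the immune system on myelin as a model of multiple sclerosis. Peak was set as the second day on which the clinical score no longer went up after a period of worsening. The labels give Ccr2rfp/+::Cx3cr1gfp/+ mice on the C57Bl/6 background, so that 1 copy each of Ccr2 and Cx3cr1 carries a reporter, and EAE was induced at 24 to 28 weeks of age. For the naive group the labels give the C57Bl/6 background and the stage, and no age or genotype of its own. Material of 30 mice was pooled per condition. The series text names brains and the extraction protocol brains and spinal cords. RNA was sequenced in 1 library per condition, so the RNA-seq values have no replicate check and no p-value. MiGS, the sequencing of methylated fragments pulled down with a methyl-CpG binding protein domain, was done in 2 libraries per condition, which the series text calls biological replicates.

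Macrophages take in cholesterol from lipoproteins, dying cells and myelin. In the lysosome, acid lipase (Lipa) splits cholesterol esters, and the soluble protein NPC2 hands the freed cholesterol to the membrane protein NPC1 for export. Surplus cholesterol is esterified in the endoplasmic reticulum by SOAT1 and kept in lipid droplets, which PLIN2 coats, or it is turned into oxysterols that bind the liver X receptors LXRα (Nr1h3) and LXRβ (Nr1h2). These receptors pair with retinoid X receptors and switch on the efflux pumps Abca1 and Abcg1 and also Mylip, which encodes a ubiquitin ligase that limits lipoprotein uptake. Myelin is rich in cholesterol, so this route is known to matter for phagocytes that clear its debris.

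The RNA-seq libraries held 31282093 (naive) and 36561934 (peak) counts, and the 10 genes took 0.365% and 0.384% of them. Microglia markers (9, among them P2ry12 and Tmem119) all had at least 14308 counts in both libraries, so the sorted cells carried the markers of their label, and all 9 were lower at peak (median log2 ratio -0.91), with a summed level of 13336 and 8436 FPKM. Past 2-fold downward were 2 of them (Fcrls and P2ry12) with TMM, 1 with DESeq2 size factors, 4 with library totals and 5 with upper quartile scaling. Of 12 monocyte markers 10 were at least 2-fold higher, with none at 0 counts in either library. The summed level of all 12 went from 8.67 to 183 FPKM (counts scaled by gene length and library total). Fn1 (83.9 FPKM), Arg1 (43.4 FPKM) and Gpnmb (19.8 FPKM) were the highest of them at peak. Ccr2 and Itga4 were 1.78-fold and 1.69-fold higher, short of 2-fold. Ccr2 and the microglia marker Cx3cr1 are the reporter genes, and the labels give no genotype for the naive group. Whether the libraries differed in intact copies of these genes was not tested. The part of the 12 monocyte markers in the differences below was not tested. The summed level of 7 neutrophil markers was 26.2 and 27.0 FPKM, that of 7 T cell markers 0.886 and 2.88 FPKM, with Cd3e, Cd3g and Cd8a at 0 naive counts, and that of 6 border macrophage markers 99.9 and 60.9 FPKM. Astrocyte markers (7) summed to 124 and 60.5 FPKM, endothelial markers (7) to 29.4 and 12.7 FPKM, oligodendrocyte markers (7) to 38.4 and 39.0 FPKM, and neuron markers (6) to 1.73 and 1.83 FPKM. Among genes with at least 50 counts, 2 neutrophil markers passed 2-fold upward and 2 downward. For astrocyte markers these numbers were 1 and 4, for oligodendrocyte markers 0 and 2, and for endothelial markers 0 and 6. In pooled cells, fewer cells of a type and less RNA per cell cannot be told apart.

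At the peak of EAE, 3 of the 10 genes passed 2-fold upward and 0 downward: Plin2 (3.01-fold), Nr1h3 (2.75-fold) and Npc2 (2.27-fold). Among all 14367 genes that reached 50 counts over both libraries, as all 10 did, 11.6% passed 2-fold upward and 9.35% downward. The median log2 ratio of the 10 genes was 0.22, against -0.00 over all genes tested, and 7 of the 10 ratios were above 1. Ratios are of counts scaled by TMM, with 0.5 added to each count, and the interval beside each is the exact (Clopper-Pearson) 95% interval, which covers counting error only. The plot of levels by library gives both values of each gene on the FPKM scale, on which genes are compared per length. The gene lengths behind FPKM ran from 2515 bp (Nr1h3) to 10725 bp (Npc1), with 3261 bp for Npc2. Ranks and ratios between genes depend on these lengths, and the intervals leave out any error in them.

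**Figure D1:**
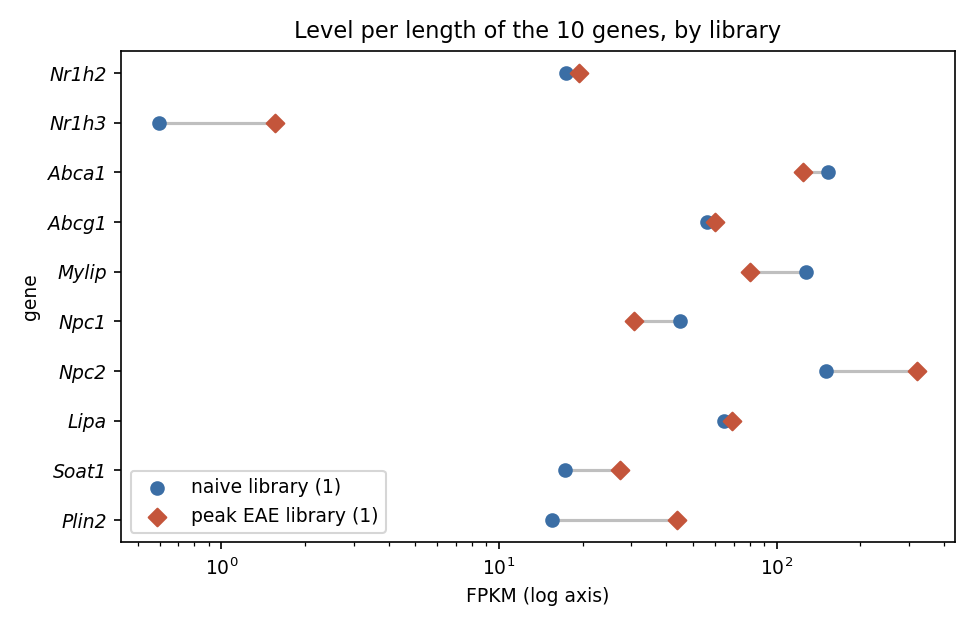
Level of each of the 10 genes in the naive library (circles) and the peak EAE library (diamonds), in FPKM on a log axis, with 1 library per condition and no error bars. Nr1h3 lies far to the left of the others in both libraries, and Npc2, Plin2 and Nr1h3 are displaced to the right at peak.

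The genes spanned a wide range of levels. In the naive library Abca1 (153 FPKM) and Npc2 (150 FPKM) were highest and their counting intervals overlapped, as did those of Nr1h2 (17.4 FPKM) and Soat1 (17.2 FPKM). Mylip (128 FPKM), Lipa (64.7 FPKM), Abcg1 (56.3 FPKM), Npc1 (44.8 FPKM) and Plin2 (15.5 FPKM) each stood apart from their neighbours. Nr1h3 was last, at 0.597 FPKM. At peak no neighbours in the order overlapped, Npc2 stood first at 320 FPKM, and Plin2 had passed Npc1, Soat1 and Nr1h2. These intervals leave out the spread between animals and libraries, which 1 library per condition cannot show.

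Both receptor genes had higher scaled counts at peak, from very different starting levels. Nr1h2, which encodes LXRβ and is expressed in most tissues, had 1832 naive and 2397 peak counts, a 1.19-fold higher scaled count (interval 1.12 to 1.27). For Nr1h3, which encodes LXRα, the receptor typical of macrophages and liver, 47 reads were counted in the naive and 143 in the peak library (2.75-fold, interval 1.98 to 3.94), so the lower bound of its interval lies just inside 2-fold. In both libraries the LXRβ gene dominated: per length, Nr1h2 stood 29.1-fold (interval 21.8 to 39.8) above Nr1h3 in the naive and 12.5-fold (10.6 to 14.9) in the peak library. Nr1h3 ranked 12671st and 10958th of 14367 genes by FPKM, while Nr1h2 ranked 2945th and 2836th. The annotated span of Nr1h3 meets that of the highly expressed phosphatase gene Acp2 (12890 and 11976 counts) over 18 bp. Whether counting used strand is not stated, so reads in the shared bases could have been counted to either gene or left out.

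The efflux pumps were already high in naive microglia and moved little. Abca1, which loads cholesterol onto lipid-poor apolipoproteins, had 49546 naive and 47070 peak counts, and its scaled count was 1.16-fold lower at peak (interval 1.14 to 1.17). Abcg1, which exports cholesterol to more mature lipoprotein particles, had 7157 and 8880 counts and was 1.13-fold higher (interval 1.09 to 1.17). Per length, Abca1 stood 2.72-fold (interval 2.65 to 2.78) above Abcg1 in the naive and 2.08-fold (2.03 to 2.13) in the peak library. Mylip, which shares its receptors with both pumps, had 12249 and 8975 counts and a log2 ratio of -0.58 (1.46-fold to 1.54-fold lower by its interval), the largest difference downward among the 10 genes. Thus the log2 ratios of the 3 receptor target genes lay between -0.58 and 0.18, beside a 2.75-fold higher count of Nr1h3.

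**Figure D2:**
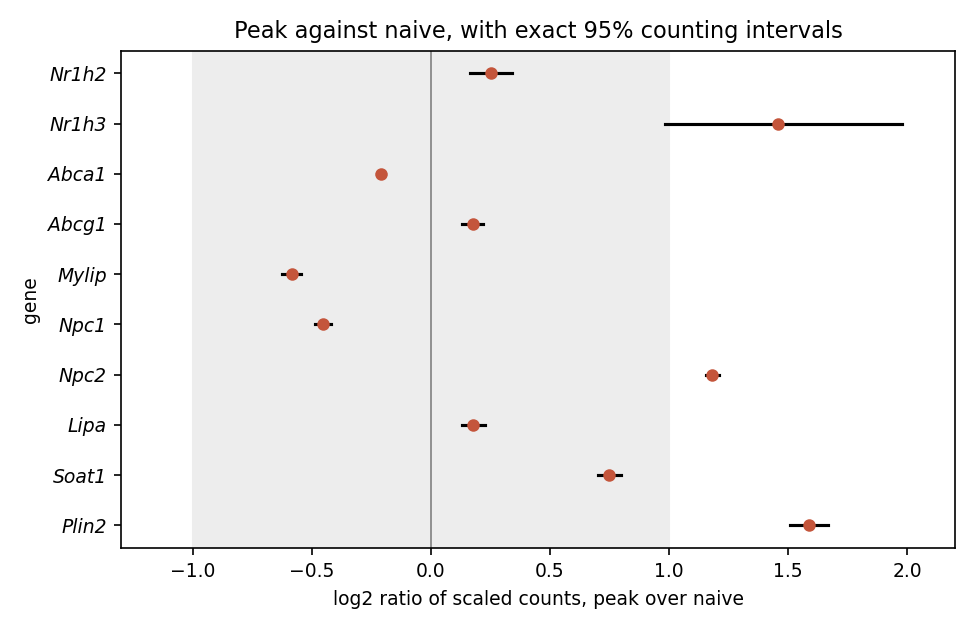
Log2 ratio of scaled counts, peak over naive, for each of the 10 genes, with bars for exact 95% counting intervals and grey shading for differences under 2-fold. Plin2, Nr1h3 and Npc2 lie to the right of the shading, though the interval of Nr1h3 reaches into it, and Mylip, Npc1 and Abca1 lie left of 0.

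The lysosomal genes split. Npc2, the soluble carrier of freed cholesterol, went from 15310 to 38143 counts (2.27-fold higher, interval 2.23 to 2.31) and from rank 214 to rank 123 by FPKM. Npc1, the membrane partner that receives this cholesterol, had 15016 naive and 12053 peak counts and was 1.37-fold lower (interval 1.34 to 1.40). Lipa, the acid lipase that frees the cholesterol, had 6011 and 7473 counts (1.13-fold higher, interval 1.09 to 1.17). The partners therefore moved apart: Npc2 stood 3.35-fold (interval 3.28 to 3.43) above Npc1 per length in the naive and 10.4-fold (10.2 to 10.6) in the peak library. The annotated span of Npc1, introns included, overlaps that of Rmc1 over 8982 bp. How reads in shared bases were counted is not stated, so they could have gone to either gene or been left out. Rmc1 (1030 and 1494 counts) had a log2 ratio of 0.40.

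Both storage genes were higher at peak. Plin2, the droplet coat protein, went from 1707 to 5638 counts (3.01-fold, interval 2.85 to 3.18), the largest ratio of the 10 genes, and moved from rank 3329 to rank 1149 by FPKM. Soat1, which makes the cholesterol esters, had 5273 and 9741 counts (1.68-fold, interval 1.63 to 1.74), short of 2-fold. Against the lipase that splits esters, Soat1 was lower per length in both libraries, with Lipa 3.76-fold (interval 3.62 to 3.90) above it in the naive and 2.53-fold (2.45 to 2.61) in the peak library.

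Of 18 further LXR target genes that reached 50 counts, 3 passed 2-fold upward and 3 downward, with a median log2 ratio of -0.13. For this list and those below, the shares over all genes tested were 11.6% upward and 9.35% downward. The higher genes were apolipoproteins: Apoc2 went from 13 to 589 counts (39.7-fold), Apoc1 from 17 to 138 (7.20-fold) and Apoe, the main lipoprotein component made by glia, from 37443 to 134651 (3.27-fold, interval 3.24 to 3.31). Nr1d1, a nuclear receptor gene of the circadian clock, was 4.22-fold lower with 608 and 158 counts. Of 12 receptor partners and coregulators 1 was higher and 0 lower (median -0.30). That gene was Rxrg, with 12 and 99 counts, while Rxra and Rxrb, the abundant retinoid X receptor genes, had log2 ratios of -0.41 and -0.32. Nrip1 and the coactivator genes Ncoa2 and Ncoa3 were 1.85-fold, 1.77-fold and 1.37-fold lower.

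Other lipid transporters of the ABC family were mostly lower, with 5 of 12 past 2-fold downward (9.35% of all genes tested), 0 upward and a median log2 ratio of -0.45. Abcb4, a phospholipid pump, was 2.87-fold lower with 1992 and 761 counts. Abca9 was 2.60-fold lower with 49653 and 20948 counts, Abca6 2.56-fold lower (80 and 34 counts) and Abca8a 2.55-fold lower (47 and 20 counts). Abca1 and Abcg1, with log2 ratios of -0.21 and 0.18, lay above that median.

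The enzymes that make or remove receptor ligands included the largest difference of the pathway lists. Ch25h, which makes 25-hydroxycholesterol, went from 70 to 4158 counts (53.7-fold, interval 42.7 to 69.5). Of 6 measured oxysterol genes 1 was higher and 2 lower (median -0.07). Cyp7b1, which clears oxysterols, was 2.74-fold lower (78 and 31 counts), and Gpr183, a receptor for oxysterols made from 25-hydroxycholesterol, was 2.47-fold lower with 7601 and 3377 counts. Hsd3b7, which acts further along the same clearance route, was 1.88-fold higher.

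Beyond Npc1, Npc2 and Lipa, 18 genes of endolysosomal sterol traffic showed 1 higher and 0 lower, with a median log2 ratio of 0.03. Cln6 was 2.44-fold higher, Tmem97, which binds NPC1, 1.83-fold higher, the sterol carrier gene Stard4 1.64-fold higher and Osbpl11 1.52-fold lower. Of 18 lipid droplet and neutral lipid genes 5 were higher and 2 lower (median -0.13). Among the higher genes were Soat2, a second cholesterol esterifying enzyme, with 47 and 694 counts (13.3-fold, interval 9.996 to 18.5), Nceh1, which hydrolyses cholesterol esters, with 688 and 3400 counts (4.50-fold), and the fatty acid carrier gene Fabp5 with 51 and 838 counts (14.8-fold). Mgll, which breaks down monoglycerides, was 2.89-fold lower. Per length, Soat2 remained below Soat1 at peak, at 8.56 against 27.2 FPKM.

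Of 22 genes of cholesterol synthesis and its regulator SREBP2, 2 were higher and 0 lower (median 0.05), namely Pmvk (2.83-fold) and Idi1 (23 and 57 counts), with Hsd17b7 1.65-fold higher. Of 12 lipoprotein uptake genes 4 were higher and 1 lower (median 0.58). The scavenger receptor genes Cd36, Msr1 and Olr1 were 29.6-fold, 9.21-fold and 7.69-fold higher and Cxcl16 4.51-fold higher. The medians of endolysosomal traffic and of cholesterol synthesis turned negative with library totals (-0.06 and -0.03) and with upper quartile scaling (-0.11 and -0.08).

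**Figure D3:**
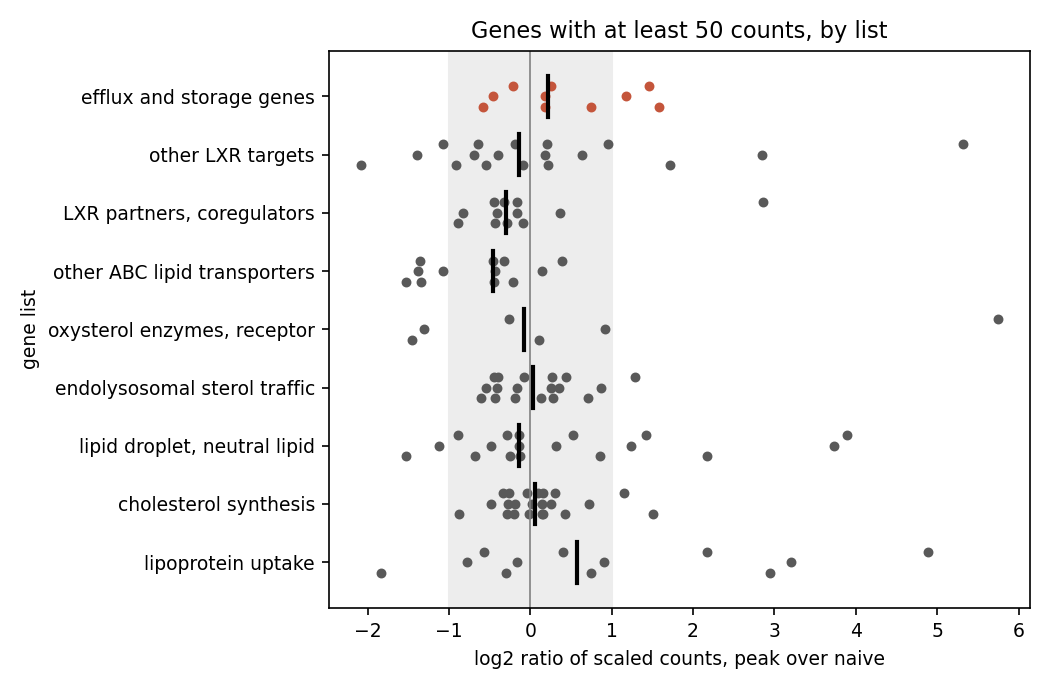
Log2 ratio of scaled counts, peak over naive, of each gene with at least 50 counts (points) in the 10 efflux and storage genes and 8 related lists, with the median of each list as a bar and grey shading for differences under 2-fold. The 10 genes spread from -0.58 to 1.59, while single genes of the other lists, such as Ch25h and Apoc2, lie beyond 5.

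MiGS was read at the starts and over the bodies of the same genes. Promoter sequences from RefSeq (build GRCm38.p6, the assembly behind mm10) gave the start and strand of 8 of the 10 genes. The 250 bases before the start are shown for 4 genes, 5′ to 3′ on the gene's strand and with CpG dinucleotides, the bases that MiGS captures when they are methylated, in capitals: Abca1 (chr4:53159896-53160145, minus strand) and Npc2 (chr12:84773113-84773362, minus strand) with many CpGs, and Plin2 (chr4:86670060-86670309, minus strand) and Nr1h3 (chr2:91195117-91195366, minus strand, the first of 2 listed starts) with fewer.
Abca1: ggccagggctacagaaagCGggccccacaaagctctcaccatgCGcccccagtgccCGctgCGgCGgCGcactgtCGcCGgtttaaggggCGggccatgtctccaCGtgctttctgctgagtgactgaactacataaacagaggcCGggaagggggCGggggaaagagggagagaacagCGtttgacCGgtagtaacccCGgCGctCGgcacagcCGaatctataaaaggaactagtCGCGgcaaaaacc
Npc2: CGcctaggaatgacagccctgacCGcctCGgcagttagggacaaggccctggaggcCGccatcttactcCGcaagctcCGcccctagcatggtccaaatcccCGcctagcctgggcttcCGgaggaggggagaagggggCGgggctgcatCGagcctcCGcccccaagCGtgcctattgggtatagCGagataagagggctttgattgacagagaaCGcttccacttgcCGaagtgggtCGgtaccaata
Plin2: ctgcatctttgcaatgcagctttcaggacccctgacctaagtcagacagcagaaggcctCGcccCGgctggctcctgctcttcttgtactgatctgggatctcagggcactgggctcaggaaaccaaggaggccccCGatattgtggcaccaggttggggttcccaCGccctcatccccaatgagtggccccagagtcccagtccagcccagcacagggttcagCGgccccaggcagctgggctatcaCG
Nr1h3: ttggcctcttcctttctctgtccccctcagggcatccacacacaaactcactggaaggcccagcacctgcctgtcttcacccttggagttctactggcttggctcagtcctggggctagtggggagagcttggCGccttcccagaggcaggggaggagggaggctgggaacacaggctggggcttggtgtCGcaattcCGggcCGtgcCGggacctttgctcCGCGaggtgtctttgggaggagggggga
These stretches hold 20, 16, 6 and 7 CpGs in that order. With the 50 bases after the start included, the 8 genes held between 7 (Lipa) and 29 (Mylip) CpGs in 300 bases, where the median over 32851 RefSeq promoters was 7. No window listed with MiGS reads fell in these 300 bases in any of the 4 libraries for any of the 8 genes. Around Abca1 and Abcg1, every listed window held several reads in some library, so weak signal may have gone unlisted.

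Over 1000 bp outside to 500 bp inside the start, 6 of the 8 genes (Abca1, Nr1h2, Nr1h3, Npc2, Soat1 and Plin2) had 0 listed reads in all 4 libraries. This was also so for 56.8% of 25748 gene starts and for 66.2% of the 9869 starts of genes with at least 50 RNA-seq counts, so the share among the 8 genes (75%) was near that of other expressed genes. A count of 0 allows up to 3 reads per library, for counting error only. With each read counted in 1 window, this is a signal of up to 1.63 to 2.32 per kb. The bound on signal is higher where a fragment is counted in several windows. The bound of 3 reads holds only if windows that were not listed held no reads, which was not tested. Mylip had 6 and 2 naive and 12 and 6 peak reads, all toward the outer edge of this region. Lipa had 18 reads in naive replicate 2 and 0 in the other libraries. For Abcg1 and Npc1, whose strand was not used here, both ends of the gene were summed, and nearly all of the signal came from 1 end: at Abcg1 the higher-coordinate end held 62 and 77 naive and 146 and 123 peak reads, and at Npc1 the lower-coordinate end held 68 and 235 naive and 66 and 130 peak reads, with 0 at the other end.

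**Figure D4:**
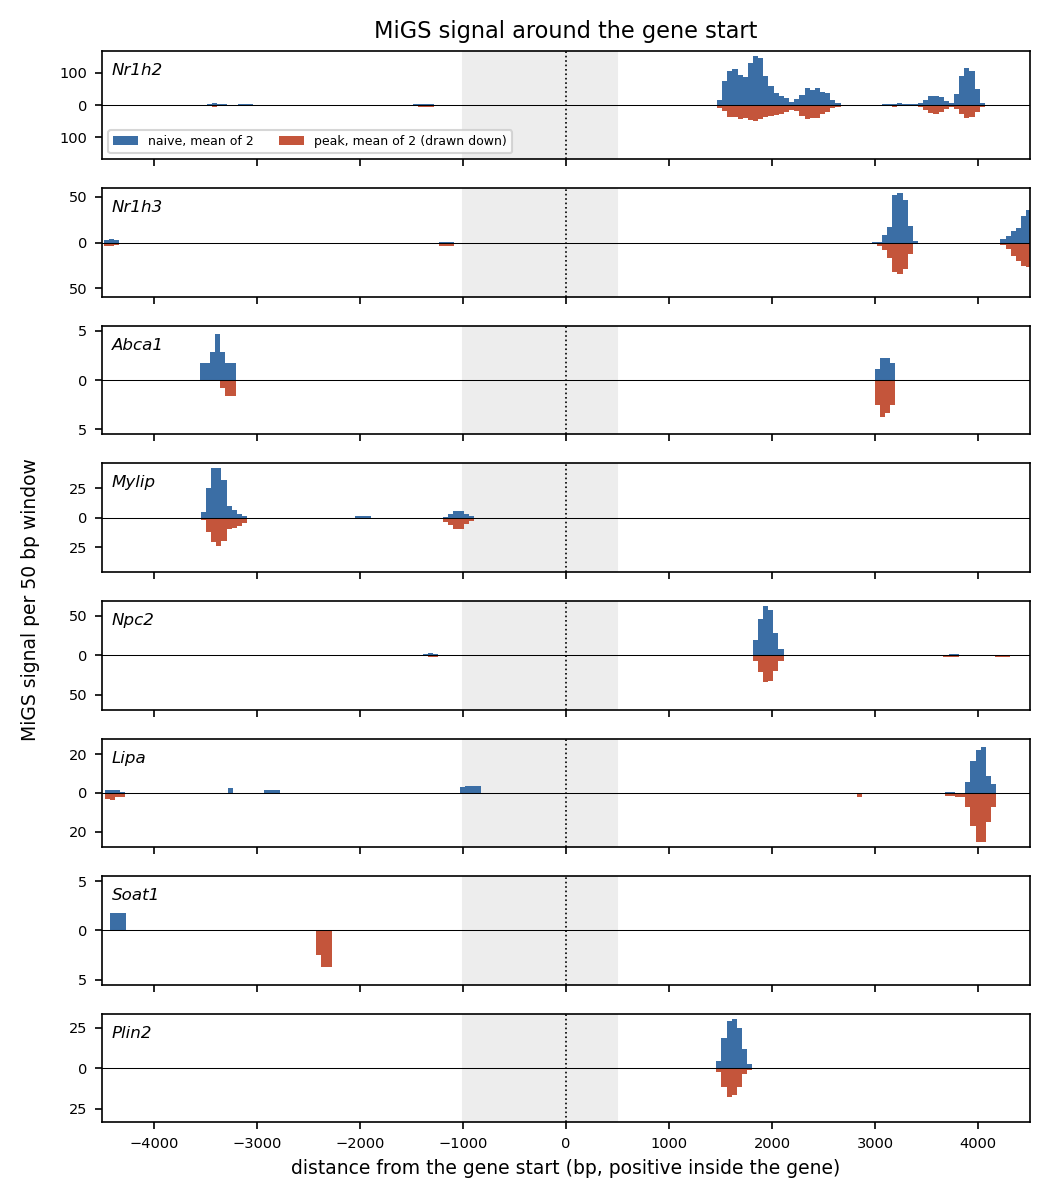
MiGS signal per 50 bp window against the distance from the gene start for the 8 genes with a known start, as the mean of 2 naive libraries (upward, blue) and 2 peak libraries (downward, red), with grey shading from 1000 bp outside to 500 bp inside the start. The shaded zone is empty for 6 genes, and the stretches nearest to the start with reads in all 4 libraries lie 942 bp upstream in Mylip, 1286 bp upstream in Nr1h2 and 1509 bp downstream in Plin2.

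Stretches with reads in all 4 libraries lay at varied distances from the starts. Downstream of the start, the nearest lay 1465 bp away in Nr1h2, 1509 bp in Plin2, 1812 bp in Npc2, 3016 bp in Nr1h3, 3874 bp in Lipa, 6309 bp in Mylip, 8545 bp in Abca1 and 17228 bp in Soat1. Upstream, Mylip had such stretches 942 and 3192 bp from its start and Nr1h2 1286, 3036 and 3286 bp from its start. For both genes the nearest stretch of all was an upstream one. Nr1h3 had such a stretch 4335 bp upstream of the start used, inside its annotated span, which reaches beyond that start. Such stretches covered 44.8% of the length of Nr1h2, a short gene, and between 2.49% (Soat1) and 12.3% (Npc1) of the length of the other 9 genes. Single stretches carried much of the signal of a gene: 72.0% in Nr1h2 (chromosome 7, 44551301 to 44552500), 42.6% in Nr1h3 (chromosome 2, 91191701 to 91192100), 40.2% in Npc2 (chromosome 12, 84771001 to 84771300) and 38.8% in Plin2 (chromosome 4, 86638451 to 86638950). Abca1 was the opposite case, with 25 stretches of which the strongest held 9.46%.

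Without a replicate block, captured signal over the gene bodies showed no called difference between conditions at any of the 10 genes. Limma (moderated test on log2 of the summed signal plus 1, two-sided, Benjamini-Hochberg adjustment over all genes with at least 20 reads) called 0.0% of 26762 gene bodies and 0.0% of 18205 gene ends, with 1091 and 800 at an unadjusted p under 0.05. On the recovered reads, edgeR and DESeq2 also called 0 of each, with 995 and 1078 bodies and 702 and 781 ends at an unadjusted p under 0.05. In simulated data, every gene was given 1 common spread, averaged over all genes (log2 SD 0.858 in bodies and 1.17 in ends). There limma called 0% of 2-fold changes in bodies and in ends. Of simulated 8-fold changes it called 31% in bodies and 0% in ends. Genes differ in spread, so these shares need not hold for the 10 genes. The lack of calls does not show that captured signal was unchanged. The series text does not say whether the replicates of a condition came from separate pools of mice, and if they did not, the p-values reflect technical spread alone.

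Nr1h2 had by far the strongest capture of the 10 bodies, between the 99.6th and 99.8th percentile of all bodies. Its values per kb were 311 and 731 in naive replicates 1 and 2 and 166 and 383 in peak replicates 1 and 2 (521 ± 297 and 275 ± 153, SD, n = 2). The groups overlapped, since peak replicate 2 lay above naive replicate 1. The log2 change was -0.92 (SE 0.43, limma adjusted p = 0.977), and it ranged from -1.53 to -0.30 when 1 library at a time was left out. Plin2 had 14.7 and 20.8 naive and 8.85 and 14.7 peak values per kb (17.7 ± 4.34 and 11.8 ± 4.13, SD, n = 2), so that naive replicate 1 and peak replicate 2 met. Its log2 change was -0.62 (SE 0.40, limma adjusted p = 0.977), with a range from -0.98 to -0.25 when 1 library was left out, beside RNA-seq counts that were 3.01-fold higher.

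Lipa was the only body of the 10 whose groups did not overlap, a pattern that 28.6% of all tested bodies showed. Its values were 7.54 and 3.60 in the naive and 8.92 and 8.96 per kb in the peak libraries (log2 change 0.77, SE 0.46, limma adjusted p = 0.977), and the change ranged from 0.24 to 1.30 with 1 library left out. Abca1, a long gene, had 7.29 and 5.04 in the naive and 11.4 and 5.92 per kb in the peak libraries (log2 change 0.44, SE 0.40), with peak replicate 1 above the rest. The other 6 bodies (Abcg1, Nr1h3, Mylip, Npc1, Npc2 and Soat1) had log2 changes between -0.21 and 0.27. For Npc2, whose RNA-seq count was 2.27-fold higher, the values per kb were 22.6 and 28.8 naive and 21.9 and 23.0 peak (log2 change -0.18, SE 0.39), and naive replicate 2 alone was higher than the rest. Nr1h3 was alike, with 18.7 and 28.0 naive and 19.5 and 22.5 peak values per kb (log2 change -0.13, SE 0.40). At the ends, only Abcg1, Mylip and Npc1 had enough reads for a test, and none was called. Abcg1 had 24.6 and 31.3 naive and 43.6 and 35.9 peak values per kb, which did not overlap (as in 33.1% of all tested ends), with a log2 change of 0.51 (SE 0.56, limma adjusted p = 0.888).

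**Figure D5:**
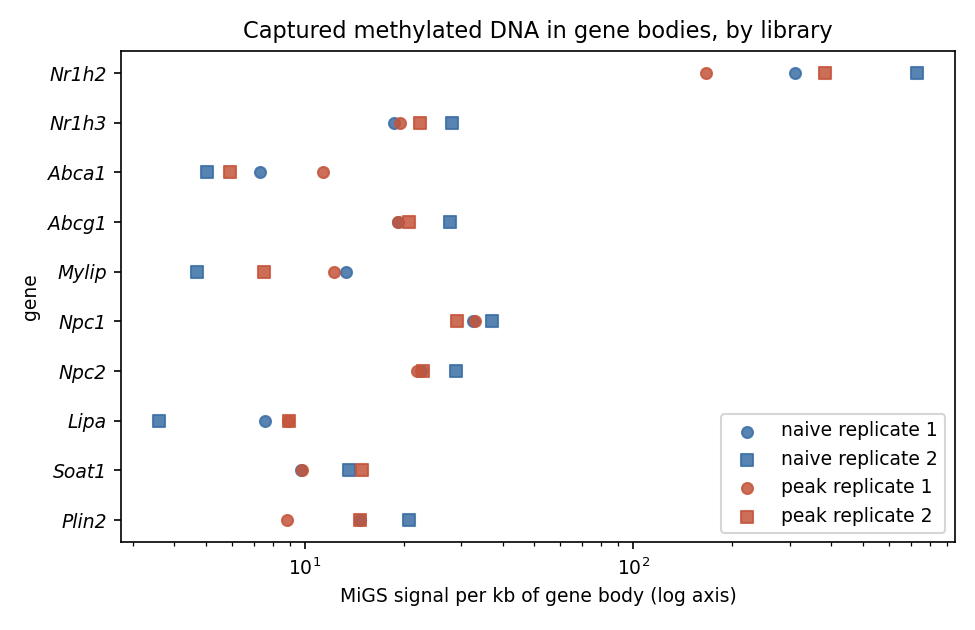
MiGS signal per kb of gene body on a log axis for each of the 10 genes, with 1 point per library (blue naive, red peak, circles replicate 1, squares replicate 2). Nr1h2 lies far to the right of the other genes, and the points of the conditions are interleaved in all genes except Lipa.

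Promoter letters were searched on both strands of the 300 bases for the paired half-sites that LXR and its partner bind, a direct repeat: GGTTA or GGTCA, then 5 free bases, then GGTCA. The form with GGTTA was found in Abca1 and in no other of the 8 genes, as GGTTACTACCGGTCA on the strand opposite to the gene, 67 to 53 bases before its start (chromosome 4, 53159948 to 53159962). Of 32851 promoters 0.0487% held the form with GGTTA and 0.0761% that with GGTCA. The stretch around the match is shown on the gene's strand, with the match in capitals.
Abca1: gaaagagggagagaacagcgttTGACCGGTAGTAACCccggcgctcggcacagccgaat
The E-box CACGTG, a site of several basic helix-loop-helix factors, was found in Abca1, 147 to 142 bases before the start, and across the start of Plin2, in 7.15% of all promoters. In Plin2 it formed part of TCACGTG (3.77% of promoters). A match describes letters only and says nothing of binding in these cells.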

How the data were processed

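Values of the 10 genes came from 1 RNA-seq library and 2 MiGS libraries per condition. The deposited table holds raw counts per Ensembl gene and FPKM, which the authors scaled by gene length and library total, per the file headers and values; 506 of 42303 rows matched no symbol (0.0573% of naive counts). For MiGS, the deposited values are a signal per 50 bp window on chromosomes 1 to 19. Of these values, 100% were whole reads (tolerance 0.001) times 1 step per library. Windows not listed were taken as 0, though they may have held weak signal. Reads summed over windows, which count a fragment several times, were 30424742 and 36501153 (naive) and 43970332 and 35285601 (peak). The build mm10 and the tools TopHat, Bowtie2, edgeR and featureCounts are named per the submitters' processing notes; their roles and versions, and whether strand was used in counting, are not stated there.

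Counts were scaled by TMM (edgeR 4.0.16) over genes with at least 50 counts, and 0.5 was added before log2 ratios. Intervals (95%) and the floor of 3 reads cover counting error only. MiGS was tested with limma 3.58.1 on log2(signal + 1) with a variance trend, over 1000 bp outside to 500 bp inside each start (both ends where no strand was at hand) and over bodies without 500 bp at both ends. DESeq2 1.42.0, edgeR, other scalings, filters and left-out libraries were alternatives; the choice to block on replicate number in edgeR came after seeing the data. Gene names and spans came from Ensembl and RefSeq (GRCm38.p6) tables. The named genes of each further list were the up to 4 largest absolute log2 ratios, of which some are not reported here; Rxra, Rxrb and the overlapping Acp2 and Rmc1 were named after their values were seen. The 10 genes and all lists were chosen with earlier results of these data known. The scripts were tested on simulated data. R 4.3.3, Python 3.11.15 and scipy 1.17.1 were used.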

Additional observations from a re-analysis of the deposited data

How the results depend on the processing

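All 10 RNA-seq ratios kept their direction, and Plin2, Nr1h3 and Npc2 stayed past 2-fold (lowest 2.73-fold, 2.37-fold and 2.06-fold), under DESeq2 size factors, library totals, upper quartile scaling, 2 added counts and FPKM plus 0.1; with at least 200 counts Nr1h3 was not tested. Upper quartile scaling moved the median of all genes by -0.14 and turned Snap25, a neuron marker, to -0.030. With at least 1 count, 4291 genes were at least 2-fold higher and 3726 lower, and with at least 200 counts 744 were lower, with more or fewer low-count genes tested. In MiGS, leaving out 1 library at a time gave 0 calls in ends and bodies in every case, and log2 changes of bodies from -0.42 to 0.16 (Nr1h3), -0.23 to 0.37 (Soat1), -0.48 to 1.02 (Mylip), -0.034 to 0.91 (Abca1) and -0.47 to 0.056 (Abcg1), whose directions thus rested on single libraries. The replicate numbers pair nothing by the labels: deviations of same-numbered libraries correlated by 0.18 in ends and 0.09 in bodies. With a replicate block, limma called 74 ends higher and 1062 lower and 4 and 219 bodies, none of the 10 genes among them, and edgeR 37 and 547 ends and 96 and 975 bodies, among them the body of Nr1h2 (lower, log2 change -0.81, edgeR adjusted p = 0.00256). The cause of these extra calls was not tested.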
